A study of Arabidopsis thaliana with 4 samples.

Results

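BZIP60 (AT1G42990), ATERDJ3B (AT3G62600) and CRT1b (AT1G09210) are 3 Arabidopsis thaliana genes of protein folding in the endoplasmic reticulum (ER). They were picked by gene name as members of this pathway, with earlier results of these data known, and each had exactly 1 probe set that carries no other gene name. They are 3 of the 13350 genes with such a probe set on the ATH1 array. Their transcripts were measured in whole seedlings, 1 week old, on 2 arrays of Col-0, the wild type, and 2 arrays of the mutant exo70A1-2. Both genotypes are of the Col-0 strain, and the labels name no transgene and no treatment that sets the genotypes apart. All seedlings stood upright on 1.6% agar at 22 °C and 65% humidity in constant light. For all samples the labels also give 75 seeds per plate and 3 days of cold. EXO70A1 is a subunit of the exocyst, which tethers secretory vesicles to the plasma membrane. The labels give the mutant's allele name but not its lesion, and no probe set was named for EXO70A1 here, so its level does not check the genotype labels.

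Secreted and membrane proteins fold in the ER, and the unfolded protein response is the programme that adjusts the folding machinery to its load. In plants the membrane sensor IRE1 cuts the BZIP60 mRNA, and the spliced form encodes a transcription factor that enters the nucleus, while BZIP17 and BZIP28 are freed from the membrane by proteases. The genes these factors activate encode chaperones, co-chaperones, lectin chaperones such as calreticulin, disulfide isomerases and parts of the degradation route for misfolded proteins. BZIP60 is itself induced at the transcript level when the response is on. ATERDJ3B is a J-domain co-chaperone of the lumenal HSP70 BiP and is known for its part in making the immune receptor EFR. CRT1b is a calreticulin, a calcium-binding lectin that holds glycoproteins in the ER until they are folded.

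None of the 3 genes differed between the genotypes at an adjusted p under 0.05 (limma, with Benjamini-Hochberg adjustment over all 13648 probe sets tested). BZIP60 had a higher mean signal in exo70A1-2, by 1.36-fold, and ATERDJ3B and CRT1b had lower means, at 0.894 and 0.847 of Col-0. Against these 0 of 3 calls, 14.1% of all 7213 named genes tested passed, each taken by its brightest probe set. At an unadjusted p under 0.05, 2 of the 3 genes passed, BZIP60 and CRT1b, as did 29.1% of the named genes. In all 3 genes the arrays of the genotypes did not overlap, which was also so for 58.9% of the named genes. An exact permutation test of 2 arrays against 2 cannot give a two-sided p below 0.333, so the test rests on the spread that limma shares across probe sets.

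**Figure D1:**
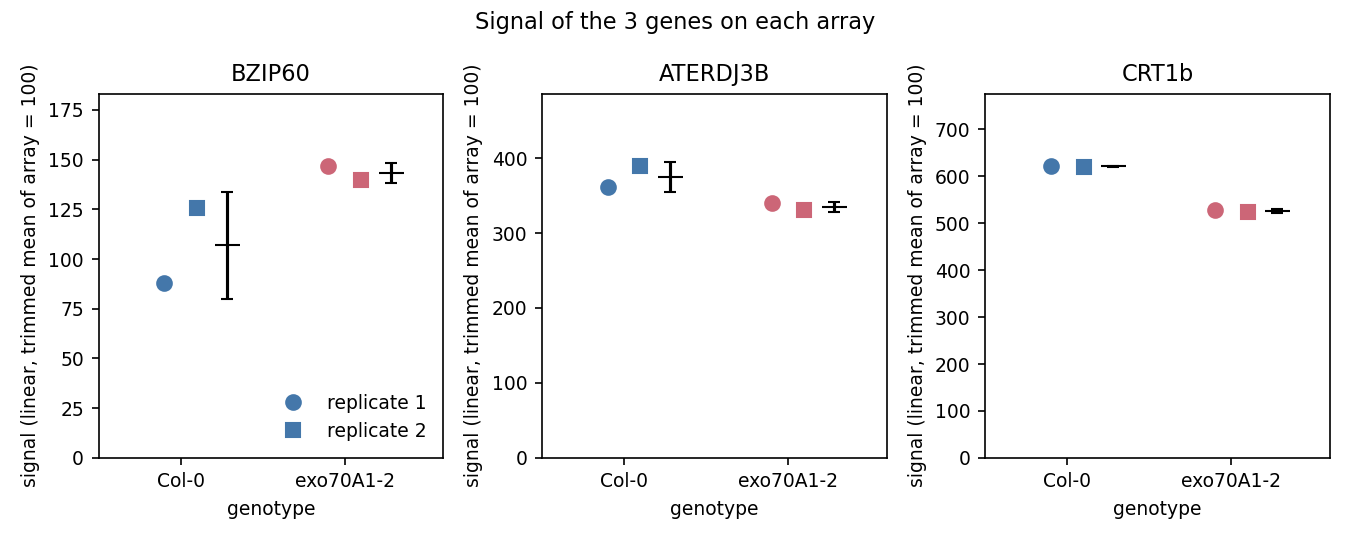
Signal of BZIP60, ATERDJ3B and CRT1b on each of the 4 arrays (linear scale, each array's trimmed mean set to 100), circles for replicate 1 and squares for replicate 2, with the mean and SD of each genotype (n = 2) as a black bar. The Col-0 arrays of BZIP60 stand far apart, at 87.9 and 126, while those of CRT1b coincide at 621.

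For the transcription factor gene BZIP60 the signal was 87.9 on Col-0 replicate 1 and 126 on Col-0 replicate 2. It was 147 on exo70A1-2 replicate 1 and 140 on exo70A1-2 replicate 2. The mutant arrays thus lay close together above both Col-0 arrays, and the Col-0 arrays were the ones that disagreed. The means were 107 ± 26.8 in Col-0 and 143 ± 4.95 in exo70A1-2 (SD, n = 2). On the log2 scale the fold change was 0.44 (SE 0.18), which did not pass (limma, adjusted p = 0.134). Its 95% confidence interval, unadjusted for the number of probe sets, ran from 0.03 to 0.86.

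The size of the BZIP60 difference depended on which Col-0 array was used. Set against Col-0 replicate 1, the mutant arrays were higher by 0.74 and 0.67 on the log2 scale, and against Col-0 replicate 2 by 0.22 and 0.15. Without Col-0 replicate 1 the log2 fold change was 0.19 (limma, adjusted p = 0.480). Without Col-0 replicate 2 it was 0.70 and passed (limma, adjusted p = 0.00857). The spread between the Col-0 arrays, 0.52 on the log2 scale, exceeded the fitted difference between the genotypes. The probe annotation does not place the probes relative to the stretch that IRE1 removes. Whether the signal covers the spliced form of BZIP60, the unspliced form or both is therefore not known here.

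For the co-chaperone gene ATERDJ3B the signal was 361 and 389 on Col-0 replicates 1 and 2. On exo70A1-2 replicates 1 and 2 it was 340 and 330. The mutant arrays were both lower, but the nearest arrays of the 2 genotypes differed by only 0.09 on the log2 scale. The means were 375 ± 19.8 in Col-0 and 335 ± 6.50 in exo70A1-2 (SD, n = 2), which is a log2 fold change of -0.16 (SE 0.11; limma, adjusted p = 0.370). The interval ran from -0.42 to 0.10.

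For the calreticulin gene CRT1b the signal was 621 on both Col-0 arrays, which differed by 0.001 on the log2 scale. It was 529 on exo70A1-2 replicate 1 and 523 on exo70A1-2 replicate 2. The arrays of each genotype almost coincided and the genotypes stood apart. The means were 621 ± 0.327 in Col-0 and 526 ± 4.00 in exo70A1-2 (SD, n = 2). On the log2 scale the fold change was -0.24 (SE 0.10), which did not pass (limma, adjusted p = 0.154), with an unadjusted interval from -0.48 to -0.003. With 2 arrays per genotype limma moves a gene's own spread towards that of probe sets of like brightness, so the standard error of CRT1b is wider than its arrays alone would give.

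The 3 genes were all bright, so that none of their values was near background. By mean log2 signal, BZIP60 stood at percentile 76.5, ATERDJ3B at 91.7 and CRT1b at 95.1 of all probe sets, and no array was under the dim limit of 21.9, the level set by the 40th percentile. Given their standard errors, BZIP60 would have needed a change of 1.54-fold to pass, ATERDJ3B of 1.31-fold and CRT1b of 1.28-fold. The absolute log2 fold change of BZIP60 was at percentile 75.3 of all tested probe sets, that of CRT1b at 49.5 and that of ATERDJ3B at 35.0. Of these, BZIP60 had the noisiest estimate, with a standard error at percentile 64.2, and CRT1b the most precise, at 2.78.

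**Figure D2:**
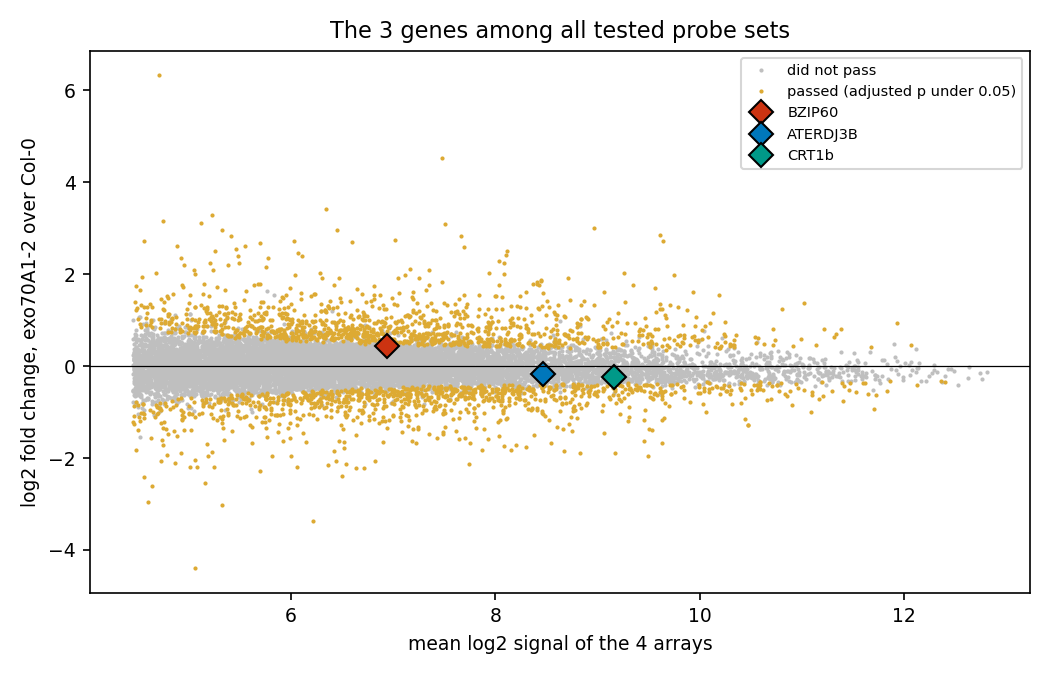
Log2 fold change of exo70A1-2 over Col-0 against mean log2 signal for the 13648 tested probe sets, those that passed in yellow and the others in grey, with the 3 genes as diamonds. BZIP60 at 0.44, ATERDJ3B at -0.16 and CRT1b at -0.24 all lie within the grey band.

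The ratios between the genes restate the fold changes above relative to one another, and their changes were not tested. From Col-0 to exo70A1-2 the log2 ratio of BZIP60 to CRT1b was higher by 0.68 on average, and by 0.40 to 0.97 over the 4 pairs of a mutant and a Col-0 array. The log2 ratio of BZIP60 to ATERDJ3B was higher by 0.61, with pairs from 0.39 to 0.83. The ratio of CRT1b to ATERDJ3B moved by -0.08, with pairs from -0.14 to -0.01. These changes within arrays have 2 arrays a genotype and are given as descriptions.

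**Figure D3:**
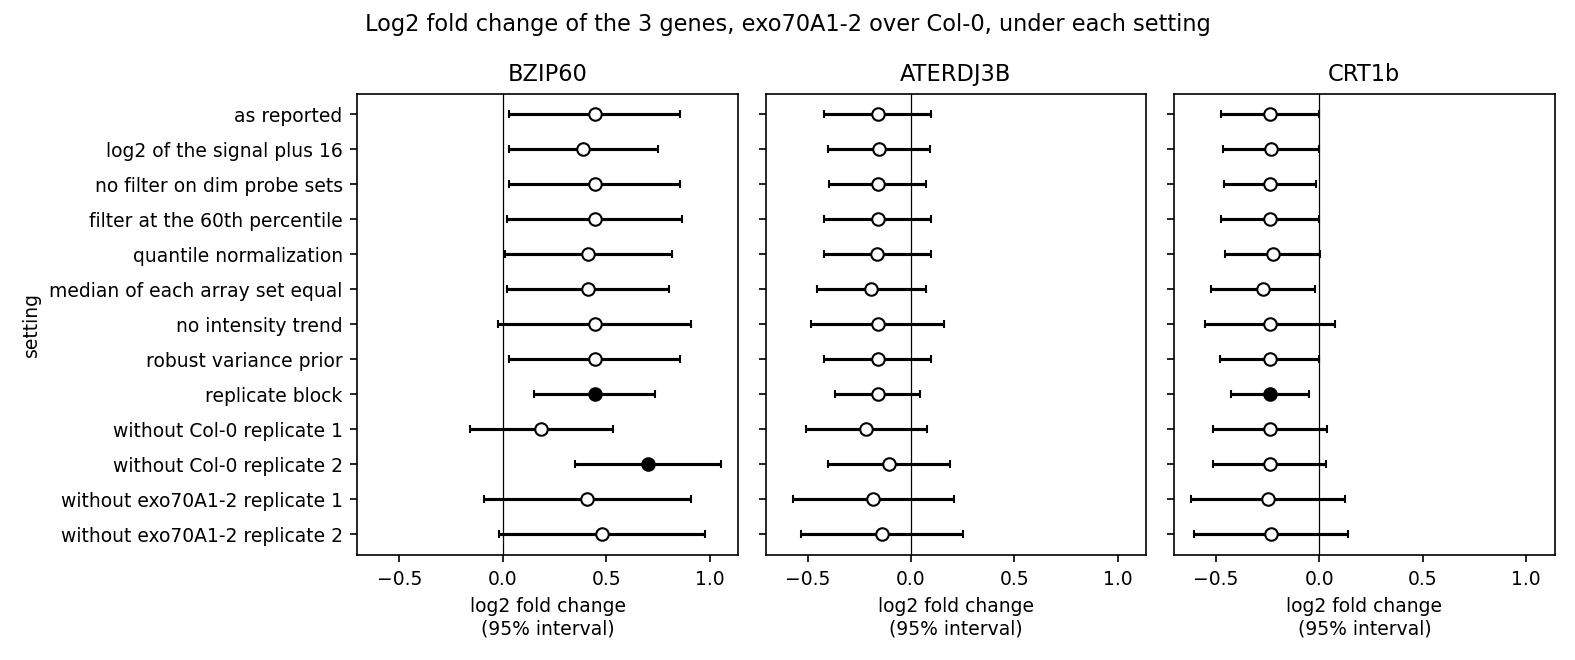
Log2 fold change of exo70A1-2 over Col-0 with its unadjusted 95% interval for each of the 3 genes, as reported and under 12 other settings, filled where the adjusted p was under 0.05. BZIP60 runs from 0.19 to 0.70 and is filled in 2 of the other settings. These are the replicate block and the fit without Col-0 replicate 2, which leaves 1 Col-0 array. ATERDJ3B is filled in none, and CRT1b stays between -0.27 and -0.23 and is filled in 1.

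The wider folding machinery was described with 6 lists of 79 genes. Of these, 25 had a probe set of their own in the annotation used and 23 were tested. The lists were drawn from general knowledge of the pathway. Genes without a symbol in the RefSeq gene table are given by locus number. Of the 23 tested genes, 1 rose and 0 fell, against 7.54% of named genes that rose and 6.53% that fell. At an unadjusted p under 0.05 (limma) were 5 of the 23, against 29.1% of the named genes. The counts by list below stand against these same shares. The median log2 fold change of the 23 genes was -0.06, with 11 above and 12 below 0, and the median of all named genes was 0.004. BiP, calnexin CNX1, the HSP90 chaperone SHD, IRE1A and the stress-induced NAC factors had no probe set of 1 gene in that annotation. It left 8730 probe sets without a name, so the array may still measure them. They were not analysed here, so the main induced chaperones of the response are not covered.

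The gene that rose was DER2.1 (AT4G21810), a Derlin of the ER membrane, a family that helps to move misfolded proteins out for degradation. Its signal was 161 and 172 on the Col-0 arrays and 259 and 252 on the exo70A1-2 arrays. The mutant arrays lay well above both Col-0 arrays, and each pair was tight. The log2 fold change was 0.62 (SE 0.12; limma, adjusted p = 0.0115). Its size was much the same with exo70A1-2 replicate 1 or 2 left out, at 0.60 and 0.64. With Col-0 replicate 1 or 2 left out the values were 0.58 and 0.67. DER2.1 passed in the fits that lacked a Col-0 array but not in those that lacked a mutant array, and the cause was not tested. In either case limma takes the spread from the genotype that keeps both arrays and from the shared prior.

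The other 5 tested genes of ER-associated degradation did not pass. All 6 had positive log2 fold changes, with a median of 0.14, as did 3632 of the 7213 named genes, and OS9 turned to -0.10 without Col-0 replicate 1. The Derlin gene DER2.2 stood at 0.29, the ubiquitin-conjugating enzyme gene UBC32 at 0.16, the lectin gene OS9 at 0.12, DER1 at 0.11 and AT4G29960 at 0.11. For OS9 the arrays of the genotypes overlapped, with 80.5 and 109 in Col-0 against 97.7 and 107 in the mutant. A second DER1 probe set was too dim to be tested, with a mean of 5.54 in Col-0.

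Among the sensors and transcription factors of the response 0 of 5 tested genes passed, with 1 of them, BZIP60, at an unadjusted p under 0.05 (limma). Their median log2 fold change was 0.16. BZIP28 and BZIP17, the membrane-bound factors, stood at 0.16 and -0.20. When 1 array was left out they ran from 0.019 to 0.29 and from -0.36 to -0.04. BZIP28 overlapped between genotypes, with 128 and 139 in Col-0 against 135 and 163 in the mutant. S1P, the Golgi protease that releases membrane-bound bZIP factors, stood at 0.27 and AT4G20310 at -0.26, and 1 mutant array of the latter was under the dim limit.

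Of the chaperones and co-chaperones 0 of 3 tested genes passed, with 1, ATERDJ2B, at an unadjusted p under 0.05 (limma). The paralogs ATERDJ2A and ATERDJ2B, J-domain proteins of the ER translocation machinery, had estimates of opposite sign, a difference that was not tested. ATERDJ2B gave 40.6 and 47.6 in Col-0 and 63.8 and 67.4 in exo70A1-2. Its arrays did not overlap, and its log2 fold change of 0.58 (SE 0.17) came close to the threshold (limma, adjusted p = 0.0548). The log2 fold change of ATERDJ2B was 0.46 without Col-0 replicate 1 and 0.69 without Col-0 replicate 2, in fits that leave 1 Col-0 array. ATERDJ2A gave 162 and 152 in Col-0 and 154 and 135 in the mutant, a log2 fold change of -0.13.

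In the list of the calnexin-calreticulin cycle and glycosylation 0 of 3 tested genes passed, with CRT1b alone at an unadjusted p under 0.05 (limma). AT5G07340 stood at 0.16 and AT1G76400 at -0.15. AT5G07340 changed sign without Col-0 replicate 2, to -0.10. The disulfide isomerase gene PDIL5-1, the only tested gene of 14 in its list, stood at -0.15, and at 0.0021 without exo70A1-2 replicate 2.

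Of the translocon and vesicle exit genes 0 of 5 tested passed, with 1, AT2G34250, at an unadjusted p under 0.05 (limma). All 5 had negative log2 fold changes, with a median of -0.22, as did 3581 of the 7213 named genes. AT2G34250 gave 726 and 708 in Col-0 and 601 and 550 in the mutant, a log2 fold change of -0.32 (limma, adjusted p = 0.0771). The others were AT3G60540 at -0.36, AT1G29310 at -0.22, AT3G63460 (SEC31B, a coat subunit of vesicles leaving the ER) at -0.07 and AT3G48570 at -0.06. The signs of the last 2 turned when 1 array was left out, AT3G63460 to 0.30 without Col-0 replicate 2 and AT3G48570 to 0.13 without exo70A1-2 replicate 2. AT1G78720 and AT1G18830 (SEC31A), with Col-0 means of 5.99 and 7.14, were too dim to be tested.

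**Figure D4:**
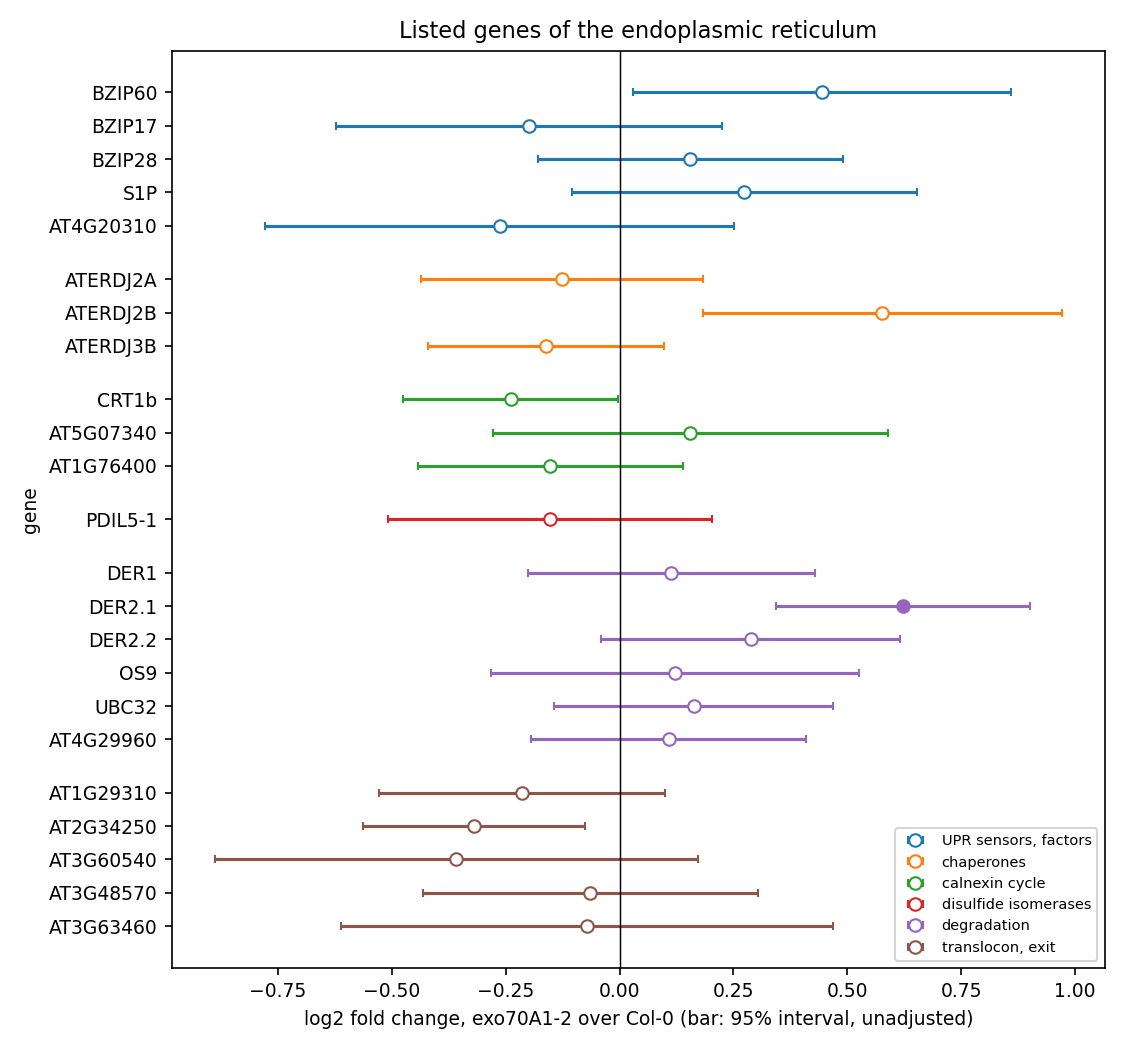
Log2 fold change of exo70A1-2 over Col-0 with unadjusted 95% intervals for the 23 tested genes of the 6 ER lists, coloured by list and filled where the adjusted p was under 0.05. Only DER2.1, at 0.62, is filled. The estimates of the 6 degradation genes lie above 0 and those of the 5 translocon and exit genes below it. Among these genes, only the intervals of DER2.1 and AT2G34250 exclude 0.

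Of 17 heat shock genes of the cytosol and plastid 2 were tested and 0 passed (limma), with 1 at an unadjusted p under 0.05. That gene was BOB1, which encodes a small heat shock protein and co-chaperone, at a log2 fold change of -0.38 (limma, adjusted p = 0.137), and AT5G48570 (ROF2), a peptidyl-prolyl isomerase, stood at 0.03. BOB1 stood at -0.21 without Col-0 replicate 1 and at -0.56 without Col-0 replicate 2, in fits that leave 1 Col-0 array. ROF2 was near the dim limit, with 2 arrays under it, and its sign changed between settings.

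Genes with a symbol or synonym of BZIP and a number were taken as bZIP genes, 22 with a probe set of their own. Of the 12 bZIP genes tested, BZIP60 among them, BZIP61 (AT3G58120) passed with a log2 fold change of 0.93 (limma, adjusted p = 0.0116). The others did not, and the median of the 12 was 0.13, with a range from -0.20 to 0.93. At an unadjusted p under 0.05 (limma) were 3 of the 12, against 29.1% of the named genes. With BZIP61 that is 1 of 12 called higher, against 7.54% of all named genes.

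The labelled material, whole seedlings, was checked with markers of green tissue and of root. On all arrays the Rubisco activase gene RCA lay between 4629 and 5572. The beta-glucosidase gene PYK10, listed for root, lay between 4356 and 4551, so these listed markers had high signal. Whether the genes listed for root are confined to root in seedlings was not checked here. Of the other root markers, JAL33 lay between 1676 and 1991 and NAI2 between 791 and 994. EXPA7, at 49.9 to 64.9, and EXPA18, at 49.3 to 68.4, were far dimmer. Of the markers tested, 2 of 5 listed for green tissue and 5 of 6 listed for root, 0 passed (limma), and 0 had an unadjusted p under 0.05. Their log2 fold changes ran from -0.16 to -0.09 in green tissue and from -0.04 to 0.22 in root. Whether organ proportions take part in the values of the 3 genes was not tested. In whole seedlings fewer cells of a type and less RNA per cell cannot be told apart.

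The genes with the most similar profiles were found among 1064 tested genes with a symbol of their own, by the Euclidean distance between log2 signals centred on each gene's mean over the 4 arrays. Closest to BZIP60 were GEK1 at 0.11, the plastid ribosomal protein gene rps2 at 0.12 and ULT1 at 0.13. All 3 shared its low value on Col-0 replicate 1, such as 30.6 for GEK1 against 45.9 to 48.3 on the other arrays. The choice by distance to the BZIP60 profile brings this about. Closest to ATERDJ3B were NRPC2, a subunit of RNA polymerase III, at 0.04, and LCR69 and OCT5 at 0.07 each. Closest to CRT1b were CLPP4, a subunit of the plastid Clp protease, at 0.02, the calmodulin-like gene CML38 at 0.04 and the actin gene ACT11 at 0.05. Within a distance of 0.2 lay 15 profiles for BZIP60, 140 for ATERDJ3B and 148 for CRT1b. The distance was not scaled by the size of a gene's change, so these counts depend in part on how little a gene moved. They are no measure of how closely genes vary together.

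As to the arrays themselves, the median signal ranged from 37.3 to 38.8 over the 4 arrays. Log2 signals of the tested probe sets correlated at 0.980 between the Col-0 arrays, at 0.987 between the mutant arrays and at 0.932 to 0.955 between genotypes, across probe sets, which are no replicates. Separate cultures or harvests are not named in the labels, so a p-value here reflects array-to-array spread that may be technical in part or whole. The number of arrays limits the precision.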

How the data were processed

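The authors deposited 1 linear signal intensity per probe set and array, and MAS5 and GCOS are named without versions, per the submitters' processing notes. As the values show, each array was scaled to a mean of 100, computed after trimming 2% from both ends. MAS5 works array by array and is noisy for low signals. Signals were log2-transformed without a constant. Of 22746 probe sets that are not controls, those with a mean log2 signal at or above the 40th percentile were tested, 13648 in all. The genotypes were compared by a two-sided test in limma 3.58.1 (R 4.3.3) on all 4 arrays, with no covariate and with a variance prior that follows intensity, with Benjamini-Hochberg adjustment over all tested probe sets and a threshold of 0.05. The fit was run on simulated data with known changes. These were larger than those of the 3 genes, so the run is no check of changes as small as theirs. Genes were named through the array's annotation and the RefSeq table of TAIR10.1, used for names only. Of the probe sets, 13513 carried 1 gene, 503 several and 8730 none here. A gene with several probe sets was represented by the brightest. Named are the 3 genes, every tested gene of the 6 ER lists and the heat shock list, the bZIP genes that passed, and the 3 nearest profiles of each gene. The members and lists were chosen with earlier results of these data known, so they are no independent support. Figures were drawn with matplotlib 3.10.9.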

Additional observations from a re-analysis of the deposited data

How the results depend on the processing

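For every difference between settings given here, the cause was not tested. The other scalings, filters and variance priors, and log2 of the signal plus 16, changed no call of BZIP60, ATERDJ3B, CRT1b or DER2.1. When 1 array was left out, the log2 fold change ran from 0.19 to 0.70 for BZIP60, from -0.22 to -0.11 for ATERDJ3B and from -0.25 to -0.23 for CRT1b, the number of listed ER genes that passed from 0 to 3 (0 without either mutant array, 3 without Col-0 replicate 2), and that of all probe sets from 973 to 3043, the lowest without exo70A1-2 replicate 2. Of these, BZIP60 passed without Col-0 replicate 2 only, at 0.70. With the replicate number as a block, BZIP60 (0.44, adjusted p = 0.0195) and CRT1b (-0.24, adjusted p = 0.0487) passed and ATERDJ3B did not (adjusted p = 0.231). With this block 5 listed ER genes passed, the others being ATERDJ2B, DER2.1 and AT2G34250, as did the heat shock gene BOB1 (adjusted p = 0.0213) and 4266 probe sets. The labels give the replicate numbers no meaning beyond the count. Replicate 1 minus replicate 2 correlated at 0.28 between the genotypes, across probe sets, and with 2 arrays a genotype the numbers are not taken as pairs. At a threshold of 0.10, 3 listed ER genes and 3293 probe sets passed, by construction. Among the genes of the ER, heat shock and organ marker lists that did not pass, 6 crossed 0 when 1 array was left out: AT5G07340 (-0.10 to 0.41), PDIL5-1 (-0.31 to 0.0021), OS9 (-0.10 to 0.34), AT3G48570 (-0.26 to 0.13), AT3G63460 (-0.44 to 0.30) and AT5G48570 (-0.40 to 0.46). AT5G48570 also did with array medians set equal (-0.0016), and PYK10 with quantile normalization (0.033). Signal near background limits the dim genes, such as AT5G48570.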
